A study of Rattus norvegicus with 4 samples.

Results

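The genes of the interleukin-1 (IL-1) family were described in NR8383 cells, a macrophage line established from rat lung lavage. They were 10 of 16581 named genes: the ligands Il1a, Il1b, Il18, Il33 and Il36b, the antagonists Il1rn and Il36rn, and the receptor genes Il1r1, Il1r2 and Il1rap. Every non-control probe whose transcript accession belongs to one of these genes was taken, without regard to its signal, which gave 12 probes on 21 spots of each array. The cells, after 20 passages, had been exposed for 4 h to 0.9 cm2/cm2 of Printex90, a commercial carbon black, in a group labelled ALI, an abbreviation left unspelled there. All 4 arrays belong to this 1 group, with 1 array for each replicate, and the series design describes the replicates as biological. The untreated cells of the design were not analysed here, so that no value is a response to the particles. A single cell line at 1 dose and 1 time limits the group as a model.

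A level is the log2 intensity of a probe relative to the 75th percentile of its array, so that 0 lies at that percentile. Levels of different probes are not ranked against each other. A gene was called detected on an array when at least 1 spot of its probes carried the software's mark for a signal well above background. The arrays detected between 8917 and 9985 named genes each, with no saturated spot. Of 12 macrophage markers, 10 were detected on all 4 arrays, including Cd68, Csf1r, Spi1 and Pparg, whereas Adgre1 was detected on 2 arrays and Marco on 1. Epithelial markers, typical of the tissue best known for Il33 and IL-36 ligands, numbered 0 of 8 on all 4 arrays (Krt5 was detected on 3 arrays and Krt8 on 1), with a summed level between -1.37 and -0.94. The other lists gave 3 of 5 endothelial genes (Pecam1, Cdh5 and Vwf) and 1 of 5 fibroblast genes (Dcn). They gave 0 of 5 measured neutrophil genes, with Mpo not measured, and 3 of 5 T cell genes (Cd3d, Lck and Cd28). Of all named genes, 50.8% were detected on all 4 arrays. Over the arrays the summed levels ranged from 4.71 to 5.06 for endothelium and from 0.38 to 0.71 for fibroblasts. They ranged from -2.60 to -1.97 for neutrophils, from 2.31 to 2.54 for T cells and from 9.997 to 10.04 for macrophages. Vwf made up most of the endothelial sum and Cd28 most of the T cell sum. For each of these genes, 1 of 2 probes was detected on all 4 arrays. The sums are not ranked against each other, and the part of other cell types in the values below was not tested.

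IL-1 alpha and IL-1 beta, the products of Il1a and Il1b, bind the receptor IL-1R1 (Il1r1), which then recruits the accessory protein encoded by Il1rap and signals through MyD88 and IRAK kinases to NF-kB. The antagonist encoded by Il1rn occupies the same receptor without recruiting the accessory protein, and IL-1R2 (Il1r2) is a decoy that binds ligand without signalling. IL-1 beta and IL-18 are made as precursors that caspase-1 cleaves, while IL-33 and the IL-36 ligands act through receptors of their own that share the accessory protein. In the lung, macrophages are a main source of IL-1 beta, and IL-1 alpha is known as an alarmin released from damaged cells.

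Of the 10 members, 7 were detected on all 4 arrays (70.0%), beside 50.8% of all 16581 named genes. These were Il1a, Il1b, Il1rn, Il18, Il36b, Il36rn and Il1rap. Il33 and Il1r2 were detected on no array (beside 36.9% of all named genes), and Il1r1 on replicate 4 alone. By probe, 8 of 12 were detected on all 4 arrays, beside 49.1% of the named probes.

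**Figure D1:**
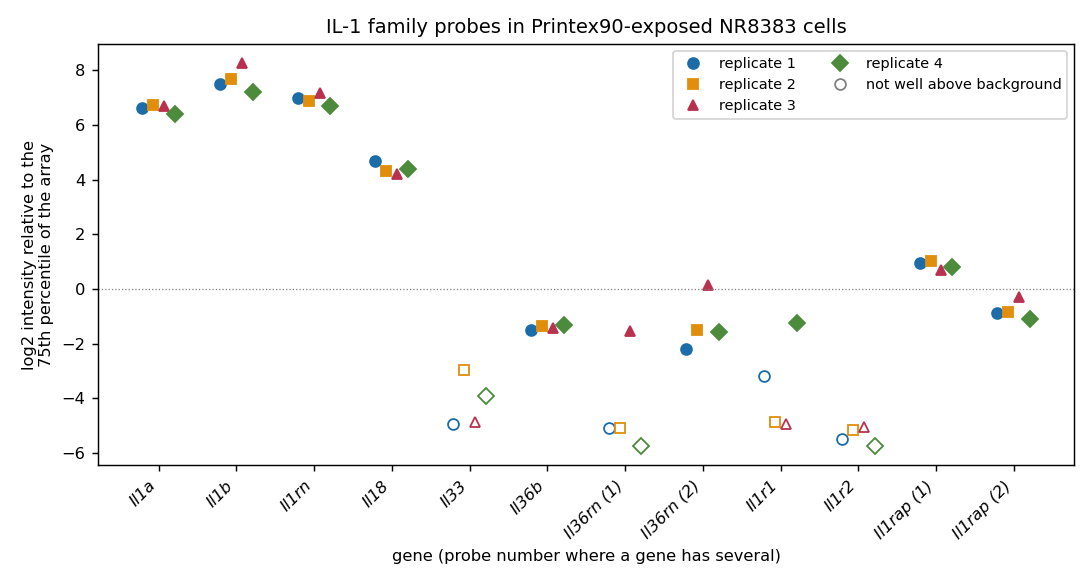
Log2 level of each of the 12 member probes (x axis) on the 4 arrays, relative to the array's 75th percentile (y axis), with open symbols where the probe was not well above background. Il1a, Il1b, Il1rn and Il18 lie above 4 on every array, and Il1r1 and one probe of Il36rn each have a single filled symbol, on replicate 4 and replicate 3.

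The 2 agonists and the antagonist of the IL-1 receptor were strongly measured. Il1a and Il1b are direct neighbours on chromosome 3 in the RefSeq annotation of the GRCr8 assembly. The 250 bases before the annotated start of these genes are shown because all 3 act on 1 receptor and their levels carry the main comparison below. Capitals mark matches to 6 motifs searched on both strands: TATAAA, the PU.1 core GAGGAA, the AP-1 motif TGANTCA, the C/EBP motif TTGCNNAA, the cAMP response motif TGACGTCA and the NF-kB consensus.
Il1a, GRCr8 chr3:136990018-136990267, minus strand: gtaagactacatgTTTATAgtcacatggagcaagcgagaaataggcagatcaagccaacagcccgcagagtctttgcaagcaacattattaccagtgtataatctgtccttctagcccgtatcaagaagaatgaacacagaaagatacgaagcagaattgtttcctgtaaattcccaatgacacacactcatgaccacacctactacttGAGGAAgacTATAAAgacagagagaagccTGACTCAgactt
Il1b, GRCr8 chr3:137036582-137036831, minus strand: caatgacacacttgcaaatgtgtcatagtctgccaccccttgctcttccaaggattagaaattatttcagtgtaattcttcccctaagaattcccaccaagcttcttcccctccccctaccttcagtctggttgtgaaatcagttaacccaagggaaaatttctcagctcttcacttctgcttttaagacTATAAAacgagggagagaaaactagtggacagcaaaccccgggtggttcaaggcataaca
Il1rn, GRCr8 chr3:27520072-27520321, plus strand: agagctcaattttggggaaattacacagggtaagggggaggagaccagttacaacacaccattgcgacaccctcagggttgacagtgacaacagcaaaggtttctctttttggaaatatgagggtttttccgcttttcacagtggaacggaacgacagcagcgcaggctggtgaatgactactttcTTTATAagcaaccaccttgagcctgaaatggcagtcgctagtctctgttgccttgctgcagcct

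Il1a held TATAAA from 32 to 27 bases before its start, the AP-1 motif as TGACTCA from 12 to 6 bases before it and GAGGAA from 41 to 36 bases before it. Il1b held TATAAA from 60 to 55 bases before its start and no other motif of the 6. Il1rn held TATAAA on the opposite strand alone, from 64 to 59 bases before its start, as did Il1a from 237 to 232 bases. Among 33469 RefSeq windows of the same length, TATAAA occurred in 12.9%, GAGGAA in 23.3%, TGANTCA in 6.34%, TTGCNNAA in 9.22%, TGACGTCA in 1.59% and the NF-kB consensus in 6.33%. None of the windows of Il1a, Il1b and Il1rn held the NF-kB consensus. It was found before Il1r1 and before both annotated starts of Il1rap, whose windows overlap and share the same match. RefSeq windows were found for 8 of the 10 members. These matches describe letters in the windows and are not evidence of binding.

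Il1a, which encodes the alarmin IL-1 alpha, had processed intensities of 9890, 8916, 10393 and 10828 on replicates 1 to 4. After scaling, its levels were 6.64, 6.73, 6.69 and 6.41, with a mean of 6.62 ± 0.14 (SD, n = 4). Replicates 1 to 3 lay close together and replicate 4 was lowest. The scanner software's own error of such a spot is 0.14 on the log2 scale, and the SD between the replicates was 0.98 times that error. The spread of Il1a was therefore no larger than the stated error of a single spot. That error was 0.144 for Il1a, Il1b, Il1rn and Il18 on every array, so that ratios to it are the SD over a constant. Without replicate 4 its SD was 0.049.

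Il1b, which encodes the secreted cytokine IL-1 beta, had processed intensities of 18216, 17173, 31086 and 18937. Its levels were 7.52, 7.68, 8.27 and 7.22, with a mean of 7.67 ± 0.44 (SD, n = 4). Replicate 3 stood 0.59 above the next array and 0.79 above the mean of the other 3 (1.73-fold). The SD was 3.05 times the stated spot error and larger than that of 96.1% of the 8424 genes detected on all 4 arrays. Without replicate 3 it was 0.23.

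The single Il1b spot lies in a bright region of replicate 3. Within 8 rows and 4 columns of it, 32.2% of the 143 spots of other probes exceeded all other arrays by at least 1 log2 unit on replicate 3, against 1.55% over the whole array. Among these neighbours, the 28 with a mean level of 3 or more deviated from their own means by a median of -0.12, -0.017, 0.37 and -0.26 on replicates 1 to 4. Il1b deviated by -0.15, 0.0089, 0.60 and -0.45. Of these 28 spots, 24 were highest on replicate 3, and 6 deviated there at least as far as Il1b. With the neighbours' median subtracted, Il1b had levels of 7.64, 7.70, 7.90 and 7.48, an SD of 0.17 and an excess of 0.29 on replicate 3 (1.22-fold). Replicate 3 remained the highest and replicate 4 the lowest array. The neighbours with a mean level under 3 deviated by a median of 0.65 on replicate 3, so that the shift differed with brightness. Il1b, at a mean level of 7.67, lies well above the cut of 3, and the shift at its own brightness was not assessed. How much of the unadjusted excess belongs to the cells was not tested, since the array holds no second Il1b spot.

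**Figure D2:**
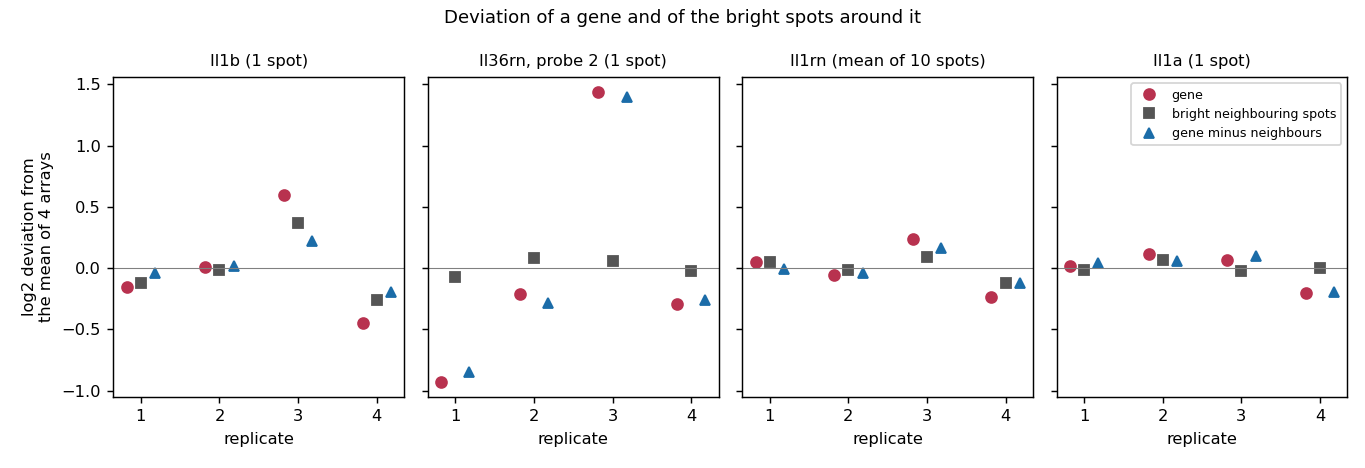
Deviation from the 4-array mean on the log2 scale (y axis) by replicate (x axis) for Il1b, probe A_64_P025998 of Il36rn (probe 2 in the plot), Il1rn and Il1a (circles), for the median of the bright spots around each (squares), and for the gene after subtraction (triangles). The squares follow the circles for Il1b, with 0.37 against 0.60 on replicate 3, and stay between -0.071 and 0.083 for that probe of Il36rn and for Il1a. That probe of Il36rn is itself dim, and its dim neighbours, not plotted, deviated by a median of 0.35 on replicate 3.

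Il1rn, which encodes the IL-1 receptor antagonist, is printed as 1 probe on 10 spots of each array. Its mean processed intensities were 12690, 9963, 14720 and 13326 on replicates 1 to 4. Its levels were 6.996, 6.89, 7.19 and 6.71, with a mean of 6.95 ± 0.20 (SD, n = 4). Over the spots of an array the SD was 0.20, 0.22, 0.11 and 0.16, with 1 spot of replicate 3 left out as a population outlier. None of its 10 spots lies in a bright region of any array, and the median shift of the bright spots around them on replicate 3 ranged from -0.0078 to 0.31. At the 9 positions measured on every array, replicate 4 was the lowest in 9 and replicate 3 the highest in 8.

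**Figure D3:**
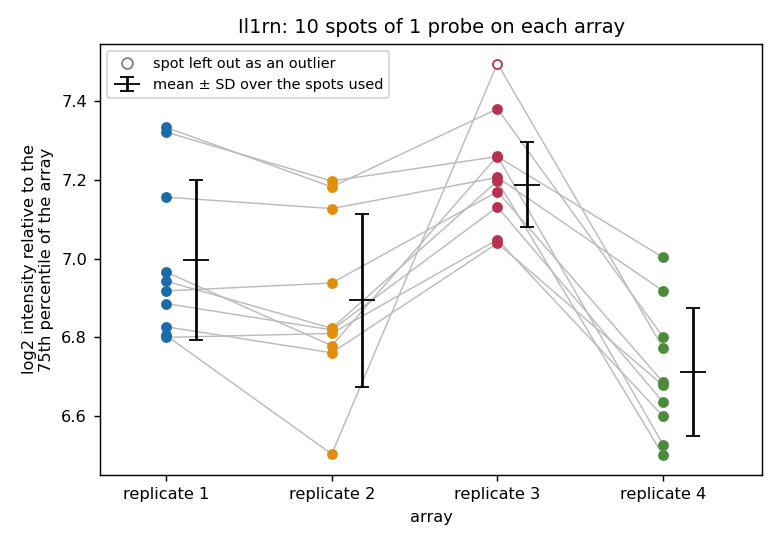
Log2 level of the 10 Il1rn spots (y axis) on each array (x axis), with grey lines joining spots at the same position, the left-out spot open, and the mean ± SD over the spots used in black. Means run from 6.71 on replicate 4 to 7.19 on replicate 3.

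The replicated spots allowed a test of whether the arrays differ for Il1rn beyond the error between spots. By limma's moderated F test the 4 arrays differed (adjusted p = 3.007e-05 over 1350 probes printed 10 times), as they did for 81.9% of these probes, so that the call is near the background. Replicate 3 exceeded replicate 2 by 0.29 (95% interval 0.13 to 0.46; limma adjusted p = 0.003; 52.4% of probes called) and replicate 4 lay below replicate 3 by -0.48 (-0.64 to -0.31; adjusted p = 5.3e-06; 61.6% called). Replicate 3 against replicate 1, at 0.19 (0.027 to 0.36), did not pass (limma adjusted p = 0.065; 34.1% called), nor did replicate 2 against replicate 1, at -0.10 (-0.26 to 0.059; adjusted p = 0.30; 46.4% called), or replicate 4 against replicate 2, at -0.18 (-0.34 to -0.021; adjusted p = 0.072; 34.9% called). Replicate 4 lay below replicate 1 by -0.28 (-0.44 to -0.12; limma adjusted p = 0.0025; 59.2% called). Over all 1350 probes the median difference was -0.060 for replicate 2 minus 1, 0.022 for 3 minus 1 and -0.15 for 4 minus 1. It was 0.098 for 3 minus 2, -0.063 for 4 minus 2 and -0.17 for 4 minus 3, and was not subtracted. The test concerns these 4 arrays and no condition. With normexp background correction of the raw median signals it was lost (limma adjusted p = 0.34).

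The transcripts of agonist and antagonist can be compared across the arrays as the difference of their deviations from their own means. Il1a and Il1b were each measured by 1 spot with a stated error of 0.14. No error was computed for the differences. For Il1b against Il1rn it was -0.20, 0.062, 0.36 and -0.22 on replicates 1 to 4, a range of 0.57. For Il1a against Il1rn it was -0.029, 0.17, -0.17 and 0.031, a range of 0.34. On these unadjusted values Il1b stood highest relative to the antagonist on replicate 3. With the shift of the bright neighbours subtracted from each gene, the order of the arrays changed for both pairs. That shift was not assessed at the brightness of the genes themselves. Il1b against Il1rn then gave -0.033, 0.059, 0.053 and -0.079. That range of 0.14 was no larger than the stated error of 1 spot, so that the order of the arrays is not resolved. Il1a against Il1rn gave 0.047, 0.097, -0.065 and -0.079, with replicates 3 and 4 close together at the low end. Its range of 0.18 was little above the stated error of 1 spot, so that this order is not taken as resolved either.

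Il18 encodes IL-18, a cytokine that caspase-1 matures and that induces interferon gamma in lymphocytes. Its intensities were 2568, 1683, 1882 and 2636, and its levels 4.69, 4.33, 4.22 and 4.37, with a mean of 4.40 ± 0.20 (SD, n = 4). Replicate 1 was highest, by 0.32, and replicate 3 lowest. On replicate 3, without adjustment, Il18 lay at -0.18 from its mean and Il1b at 0.60 from its own. With the shift of the bright neighbours subtracted they lay at -0.21 and 0.22. The SD of Il18 was 1.40 times the stated spot error, and 0.079 without replicate 1. With the array median as scale the sign of replicate 3 against the others turned for Il18, from -0.24 to 0.33, because that scale moves all detected genes on replicate 3 by a median of 0.57.

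Il33, an alarmin of epithelial and endothelial nuclei, was not well above background on any array. Its intensities were 3.2, 10.9, 3.4 and 8.4. On replicates 1 and 3 the software's error was as large as the signal, whereas on replicates 2 and 4 the less strict flag, positive and significant, was set. The lowest intensity that any probe flagged as well above background had was between 9.17 and 10.3 on the 4 arrays.

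The IL-36 genes gave weak signals. Il36b, an epithelial agonist, had intensities of 35.4, 32.4, 37.6 and 50.5 and levels of -1.49, -1.37, -1.43 and -1.33, with a mean of -1.40 ± 0.068 (SD, n = 4). The arrays lay within 0.16 of each other, less than the stated spot error of 0.19, and only 7.35% of detected genes had a smaller SD. Its signal was well above background on all 4 arrays.

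Il36rn, which encodes the antagonist of the IL-36 receptor, was measured by 2 probes that disagreed. Probe A_64_P025998 had intensities of 21.4, 29.8, 112.8 and 42.6 and levels of -2.21, -1.49, 0.16 and -1.58, well above background on all 4 arrays, with a mean of -1.28 ± 1.01 (SD, n = 4). Probe A_64_P025993 had intensities of 2.9, 2.5, 34.9 and 2.4, well above background on replicate 3 alone. The first was highest on replicate 3, by 1.65 on the log2 scale, and without that array its SD was 0.39. The second has only an upper bound on replicates 1, 2 and 4, where its signal was no larger than its error, so that no exact difference is given. Both spots lie in the bright region of replicate 3: 28.2% and 49.3% of their neighbouring spots exceeded all other arrays there by at least 1 log2 unit. Their neighbours with a mean level under 3 deviated by a median of 0.35 and 1.91 on replicate 3, and those with a mean level of 3 or more by 0.058 and 0.40. Probe A_64_P025998 itself deviated by 1.44. Detection of Il36rn on replicates 1, 2 and 4 rested on probe A_64_P025998 alone. When every probe of a gene had to be detected, Il36rn was lost and 6 members remained.

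Of the receptor genes, only Il1rap was detected on all 4 arrays. Il1r1, the signalling receptor, had intensities of 11, 2.9, 3.3 and 54.1, and was well above background on replicate 4 alone, at a level of -1.23. On replicates 2 and 3 its signal was no larger than its error. The neighbours of its spot did not stand out on replicate 4, with 2.88% of 139 spots exceeding all other arrays by at least 1 log2 unit against 3.27% over the whole array. Its single probe was designed on a predicted transcript, and other transcripts of the gene were not assessed. Il1r2, the decoy receptor, had intensities between 2.2 and 3.0, each no larger than its error, so that its level has only an upper bound.

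Il1rap, the accessory protein gene, was detected on all 4 arrays by both of its probes, which were designed on different RefSeq transcripts. Probe A_44_P1009757 had intensities of 190.9, 170.4, 162.3 and 219.9 and levels of 0.94, 1.02, 0.69 and 0.79, with a mean of 0.86 ± 0.15 (SD, n = 4). Probe A_44_P1085078 had intensities of 53.5, 47.3, 82.0 and 59.0 and levels of -0.89, -0.83, -0.30 and -1.11, with a mean of -0.78 ± 0.34 (SD, n = 4). On replicate 3 the first was lowest, at -0.18 from its mean, and the second highest, at 0.48. Bright spots around the second probe were shifted by 0.20 there and those around the first by -0.046. Neighbours with a mean level under 3, as both probes have, were shifted by 0.14 and 0.026. After the shifts of the bright spots were subtracted, the first and second probes lay at -0.13 and 0.29 from their means on replicate 3.

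Among the 7 detected members the SD ranged from 0.068 for Il36b to 1.01 for Il36rn, with a median of 0.20 against 0.16 over all detected genes. Of the 7, 4 lay above that overall median. The members had no common order of the arrays. Replicate 3 was highest for 3 of the 7 (Il1b, Il1rn and Il36rn), beside 31.5% of all detected genes, and replicate 4 was lowest for 3 (Il1a, Il1b and Il1rn), beside 29.8%. Bright regions held 2.84% of the non-control spots on replicate 3, beside 0.40%, 2.23% and 2.61% on replicates 1, 2 and 4. Of the 3 genes highest on replicate 3, Il1b and Il36rn have their only or both spots in its bright region, and Il1rn has none there. With the array median as scale, 6 were highest on replicate 3 and the median SD was 0.41, beside 0.39 over all detected genes. On that scale all detected genes exceeded the other arrays on replicate 3 by a median of 0.61. The count lowest on replicate 4 became 5 with the mean of all probes of a gene and 0 with normexp.

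**Figure D4:**
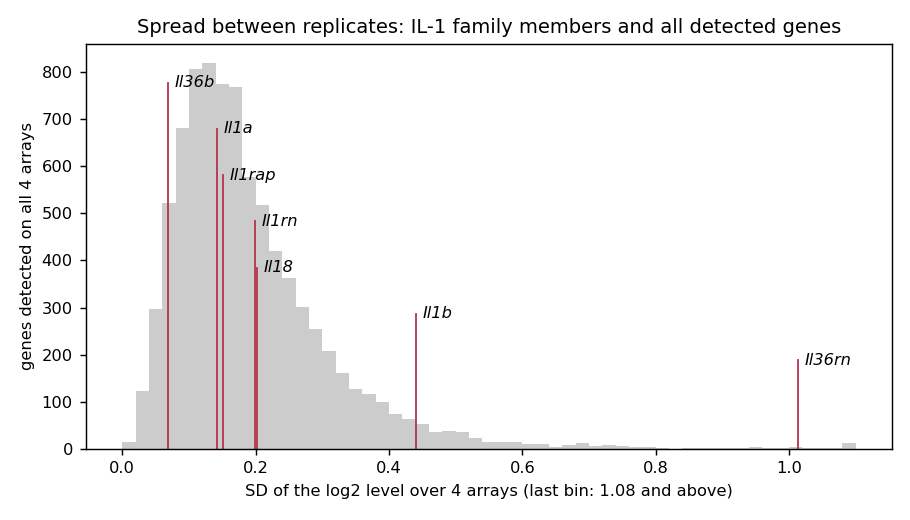
Histogram of the SD of the log2 level over the 4 arrays (x axis) for the genes detected on all 4 arrays (y axis, number of genes), with red lines at the 7 detected members. Il36b lies at the narrow end, Il1a, Il1rap, Il1rn and Il18 lie between 0.14 and 0.20, and Il1b (0.44) and Il36rn (1.01) lie in the tail.

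The genes whose levels followed a member most closely were taken by the root mean square difference of the 4 mean-centred levels, over 4 arrays, so that many genes lie close. For Il1b they included C2h4orf33 at 0.030 and Gal3st4 at 0.067, and the C2h4orf33 spot also lies in a bright region of replicate 3. For Il1rn they were Trip10 at 0.0079, Anapc11 at 0.012 and Xiap at 0.012, of which the Anapc11 spot lies in a bright region of that array. For Il1a they were Pxk at 0.0059, Hdac1l at 0.0077 and Dnajc7 at 0.0078. The candidates numbered 2484 for Il1b, 6326 for Il1rn and 6339 for Il1a.

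Other family genes were mostly not well above background, whereas the signalling chain below the receptor was. Of 3 further ligands, 0 were detected on any array, so that the epithelial agonists Il36a and Il36g have only an upper bound. Of 7 measured further receptors and binding proteins, 1 was detected on all 4 arrays and 6 on none. The latter included Il1rl1, the IL-33 receptor, and Il1rl2, the IL-36 receptor, whose levels are likewise bounded from above only. The detected gene, chosen for mention after its values were seen, was Il18bp, which encodes a soluble inhibitor of IL-18. It had levels of -0.083, -0.45, -0.36 and -0.50, highest on replicate 1 as Il18 was.

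In the processing and release list, 6 of 9 measured genes were detected on all 4 arrays and 3 (Gsdme, Panx1 and P2rx7) on none. Nlrp3, the inflammasome sensor, had levels of 1.94, 2.33, 2.59 and 2.25, and Pycard, its adaptor, 1.16, 0.80, 0.66 and 1.25, so that Nlrp3 was highest and Pycard lowest on replicate 3. Casp1, Casp4, Casp8 and Nek7 were also detected. Of 12 receptor-proximal signalling genes, 12 were detected, with the adaptor gene Myd88 at 6.13, 6.02, 6.45 and 5.96 and the kinase gene Irak1 at 1.43, 1.38, 1.52 and 1.45. In the NF-kB and mRNA decay list, 7 of 8 were detected on all 4 arrays and Zfp36 on 2. The kinase genes Chuk and Ikbkb lay at 1.69 ± 0.26 and 2.33 ± 0.067 (SD, n = 4). Chuk had 1 of 2 probes and Nlrp3 had 2 of 3 probes detected on all 4 arrays, and the levels given are those of the brightest probe. Over the 5 lists 26 of 39 measured genes were detected on all 4 arrays, beside the 50.8% of all named genes, and 9 of these 26 were highest on replicate 3, beside the 31.5% of all detected genes.

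**Figure D5:**
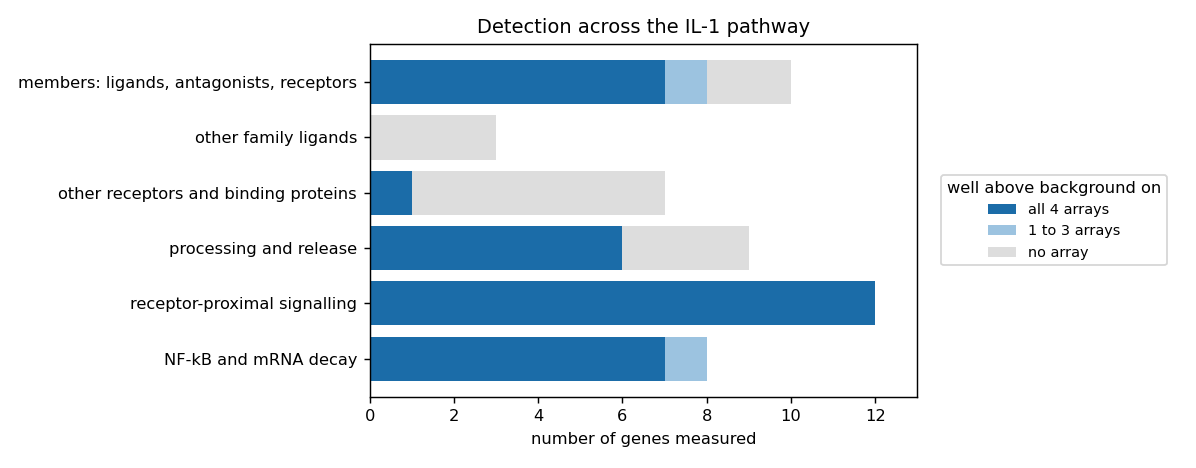
Number of measured genes (x axis) in the IL-1 family members and in 5 related lists (y axis), split by whether they were well above background on all 4 arrays, on 1 to 3 arrays or on none. All 12 receptor-proximal signalling genes fall in the first class, and 9 of the 10 further ligands, receptors and binding proteins fall in the last.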

How the data were processed

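Total RNA of 4 exposed cultures was labelled with Cy3 and measured on 1-colour Agilent rat arrays. The submitters' processing notes name Agilent Feature Extraction 11.0.1.1 as the source of the deposited spot intensities. Per the file headers, the processed intensity is background-subtracted on a linear scale, the array grid was built on rn4, and no scaling between arrays is recorded. The files hold accessions and no gene names. Accessions without version were matched to the RefSeq table of the GRCr8 assembly, which named 21109 of 45598 non-control probes; no probe was placed on it, because the builds differ, and the only coordinates given are those of the RefSeq promoter windows in GRCr8.

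Spots marked as non-uniform or as population outliers, between 750 and 1551 an array, were left out. A probe took the mean log2 intensity of its spots, less the 75th percentile over the non-control probes of that array. A gene's level is that of its probe with the highest mean among probes measured on all 4 arrays. Spots of the 1350 probes printed 10 times were fitted with limma 3.58.1 in R 4.3.3, with arrays as levels of 1 factor. A moderated F test and pairwise contrasts were used at a Benjamini-Hochberg adjusted threshold of 0.05. The step was tested on simulated data. A bright region is a block of 16 rows and 8 columns in which more than 10% of spots without a gene name exceeded all other arrays by at least 1 log2 unit. For the local shift, the neighbours of a spot lie within 8 rows and 4 columns, and those with a mean level of 3 or more count as bright. The 4 arrays are the limit on the precision of each value, and 1 group allows no comparison between conditions.

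The members and lists were chosen with earlier results of these data known. Named with values are all 10 members, the first 2 measured genes of each list (without a level where not detected) and, for Il1a, Il1b and Il1rn, the 3 nearest genes by root mean square difference among detected genes with 0.5 to 2 times the member's SD. One gene that this rule names for Il1b is not reported here. The local shift, the removal of bright regions, normexp (offset 50) applied to median signals, and all alternatives of the limma test were added after the data were seen. Python 3.11.15 with numpy 2.4.6, pandas 2.3.3 and matplotlib 3.10.9 was used.
All 4 arrays come from 1 slide and 1 scan, so that neither could be tested as a batch.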

Additional observations from a re-analysis of the deposited data

Results flagged for a closer look

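One member probe had an array far from the others. For probe A_64_P025993 of Il36rn, the gap between replicate 3 and the nearest other array was 0.843 of the whole range, above Dixon's 95% critical value for 4 samples. The probe was not well above background on replicates 1, 2 and 4, where its signals were no larger than their errors, so that both the gap and the range rest on floor values. Probe A_64_P025998 of the same gene, detected on all 4 arrays, gave 0.697 and did not pass. Both spots lie in the bright region of replicate 3. Of the 12 member probes 1 passed, and chance alone gives about 1 in 20. Of the 8424 genes detected on all 4 arrays 5.35% passed, but probe A_64_P025993 was not detected on all 4.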

How the results depend on the processing

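The count of 7 detected members was the same with the less strict flag, with outlier spots kept, with 3 of 4 arrays and without each replicate (7 to 7, and 8 to 8 for the probes). It was 6 when all probes were required and 5 (6 probes) without the bright regions, where Il1b and Il36rn have no spot left. Scaling to the array median gave 6 members highest on replicate 3 and a median SD of 0.41, beside 0.39 over all detected genes. That scale moves all detected genes. With the mean of all probes 5 members were lowest on replicate 4, and with normexp 0 were. The limma call for Il1rn had adjusted p-values from 3.4e-16 to 0.34 over its alternatives and was lost with normexp (0.34); without each replicate they ran from 9.5e-06 to 0.016. It was 1.55e-05 with outlier spots kept, and 1.6e-07 with outlier spots kept and spot position as a block together. The cause of these changes was not tested. Without each replicate the SD of Il1b ran from 0.23 (without replicate 3) to 0.54. The excess of Il1b on replicate 3 was between 0.67 and 1.37 over the alternatives, other than 0.29 with the local shift subtracted. The sign of replicate 3 against the other arrays turned in 11 of 82 alternative values of the detected members, for Il1a, Il18, Il36b and Il1rap. Normexp on the mean signals, planned, was not run, because the files used here hold medians. No paired analysis was possible because there is 1 group.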
